A study of Rattus norvegicus with 15 samples.

Results

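Elastin and 9 further genes of elastic fibre assembly were followed through cultured rat aortic smooth muscle cells (SMC). The genes were Eln, Fbn1, Fbln1, Fbln5, Efemp2, Mfap2, Mfap5, Lox, Loxl1 and Emilin1. They were taken by symbol from a table of 32623 gene entries, each matched 1 entry, and 9 of the 10 passed the filter on low genes that 12207 entries passed. All groups were aortic SMC in culture. Untreated wild-type cells (control), the line Myocd-LSD1 and the line Myocd-LSD1NF gave 4 RNA-seq libraries each. Wild-type cells given human recombinant PDGF-BB, a growth factor that drives SMC out of the contractile state, gave 3. The dose was 30 ng/ml for 24 h after 48 h in serum-free medium, and the cells of every group had 72 h without serum before harvest. Myocd-LSD1 is a fusion of myocardin, a coactivator of contractile genes, with the histone demethylase LSD1 and was made to strip H3K4me2 from SMC genes. The labels do not say what NF stands for, which promoter drives the constructs or whether a line is 1 clone. An effect of a fusion cannot be told apart from any other difference between a line and wild-type cells.

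Elastic fibres give the wall of the aorta its recoil. SMC secrete the soluble monomer tropoelastin, the product of Eln, which gathers on microfibrils built mainly of fibrillin-1 (Fbn1). The fibulins Fbln5 and Efemp2 (fibulin-4) bring tropoelastin, microfibrils and the enzymes together, and lysyl oxidases of the Lox family join lysines of neighbouring elastin molecules into permanent cross-links. In mice, loss of Eln, Fbln5, Efemp2, Lox or Loxl1 leaves defective elastic fibres, and in humans variants of FBN1 cause Marfan syndrome.

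Values are TPM, a transcript abundance scaled to gene length and to the same total in every library, so that levels may be compared between genes and the sequencing depth is unknown. Between 11306 and 11702 entries reached 1 TPM in a library, and the correlation of log2 values between libraries of the same group lay between 0.961 and 0.988. Differences below are log2 fold changes ± SE of TPM + 1, which understate the change of low genes, with adjusted p-values from limma over all 12207 entries. Folds without "log2" are ratios of mean TPM. Whether each library is its own culture is not stated in the labels, and the p-values then cover the spread of these libraries alone, which may be technical. Myocd, a fusion partner, was at 26.2 to 30.6 TPM in control and 0.15 to 0.56 TPM in Myocd-LSD1. It was at 18.3 to 49.6 TPM in Myocd-LSD1NF and 14.8 to 23.1 TPM with PDGF-BB. Kdm1a, the gene of LSD1, was at 50.4 to 57.9 TPM in control and 58.7 to 67.7 TPM in Myocd-LSD1. In Myocd-LSD1NF it was at 49.1 to 61.9 TPM and with PDGF-BB at 62.0 to 75.6 TPM, so neither level checks for the fusion.

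Of the SMC markers, Acta2 and Tagln averaged 9718 and 7679 TPM in control, while Myh11 averaged 21.5 TPM and Des 0.87 TPM. The summed TPM of 8 SMC markers (Acta2, Tagln, Myh11, Cnn1, Smtn, Des, Lmod1, Synpo2) ran from 17580 to 21923 in control and 9514 to 20472 in Myocd-LSD1NF. With PDGF-BB it was 5345 to 7186, and Myocd-LSD1 had 3446 to 6108. The endothelial markers Cdh5 and Tie1 and the leukocyte markers Ptprc, Cd3e, Cd79a and Tyrobp were listed at 0 in all 4 control libraries. Of the 7 endothelial markers matched, Egfl7 (13.0 to 18.4 TPM) and Erg (2.56 to 6.29 TPM) passed the filter. The sum of 8 cartilage markers was 391 to 577 TPM in control, most of it Col11a1 (347 to 543 TPM), with Acan and Col2a1 at up to 0.05 and 0.04 TPM. That sum was 160 to 208 TPM in Myocd-LSD1NF, 159 to 165 TPM with PDGF-BB and 338 to 929 TPM in Myocd-LSD1. Library 4 of Myocd-LSD1NF stood apart from the rest of its group, with a marker sum of 9514 TPM against 17260 to 20472, and Acta2 at 3979 TPM against 10729 to 11982. In Myocd-LSD1, libraries 2 and 4 were the closest pair (r = 0.987, other pairs 0.961 to 0.981), and results that change without both are given. In bulk RNA, fewer cells that express a gene and less RNA per cell cannot be told apart.

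RefSeq (GRCr8) gave a promoter window for 6 of the 10 genes, Fbn1, Fbln5, Efemp2, Mfap2, Mfap5 and Loxl1. The 250 bases before the start are shown for 4 of them because these genes moved in different directions below. Efemp2 had its highest level in Myocd-LSD1, where Fbln5 and Mfap5 fell, and Fbn1 rose under PDGF-BB and fell in Myocd-LSD1. Capitals mark the GC box GGGCGG on either strand.
Efemp2, chr1:212211472-212211721, plus strand: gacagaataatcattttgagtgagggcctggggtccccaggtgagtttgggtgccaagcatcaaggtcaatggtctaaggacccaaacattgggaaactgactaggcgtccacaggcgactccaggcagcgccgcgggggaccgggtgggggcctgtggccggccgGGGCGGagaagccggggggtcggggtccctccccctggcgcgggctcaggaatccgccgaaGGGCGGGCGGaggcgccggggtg
Fbln5, chr6:126742707-126742956, minus strand: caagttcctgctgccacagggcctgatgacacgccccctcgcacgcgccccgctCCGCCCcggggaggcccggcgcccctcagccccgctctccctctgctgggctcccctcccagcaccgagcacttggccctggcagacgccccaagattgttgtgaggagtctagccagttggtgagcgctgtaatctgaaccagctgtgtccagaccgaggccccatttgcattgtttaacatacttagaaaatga
Fbn1, chr3:133203391-133203640, minus strand: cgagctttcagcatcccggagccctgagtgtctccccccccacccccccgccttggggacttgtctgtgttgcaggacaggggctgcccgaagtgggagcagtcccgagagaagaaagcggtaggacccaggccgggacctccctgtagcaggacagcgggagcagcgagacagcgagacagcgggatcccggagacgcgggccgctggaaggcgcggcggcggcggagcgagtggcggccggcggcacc
Mfap5, chr4:157399669-157399918, plus strand: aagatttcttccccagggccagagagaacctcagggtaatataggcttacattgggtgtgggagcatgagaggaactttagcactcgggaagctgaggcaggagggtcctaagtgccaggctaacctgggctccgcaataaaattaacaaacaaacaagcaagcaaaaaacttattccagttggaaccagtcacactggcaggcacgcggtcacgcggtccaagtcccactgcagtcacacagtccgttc
Efemp2 carried 3 GC boxes, 2 of them overlapping by 2 bases next to the start, Fbln5 carried 1 and Mfap2 1, and the windows of Fbn1, Mfap5 and Loxl1 held none. Of 33469 promoter windows of this length, 30.5% held a GC box. G and C made up 68.0% of the Efemp2 window, 71.2% of Fbn1, 63.2% of Fbln5 and 51.6% of Mfap5, against a median of 51.2% over all windows. The CArG box of serum response factor (in 1.5% of all windows), the AP-1 site TGACTCA (4.05%), the Smad box GTCTAGAC (0.173%) and TATAAA (12.9%), searched on both strands, were not among the letters of these 6 windows. A match or its lack in such a window is a description only.

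Eln, the gene of tropoelastin, had the widest range of the 9 genes tested. It was among the 3 most abundant entries of every control library, at 14327, 11322, 15036 and 11473 TPM. Myocd-LSD1NF libraries read 7791, 7798, 8543 and 2292 TPM, PDGF-BB libraries 1501, 1408 and 1331 TPM, and Myocd-LSD1 libraries 122, 79.2, 599.8 and 209 TPM. The ranges of the 4 groups did not overlap, and the order was control, Myocd-LSD1NF, PDGF-BB and Myocd-LSD1. The mean of 13039 ± 1919 TPM (SD, n = 4) in control compared with 253 ± 238 TPM (n = 4) in Myocd-LSD1, a 51.6-fold difference (log2 fold change -6.10 ± 0.51, adjusted p = 4.92e-07, limma). Under PDGF-BB it was 1413 ± 84.9 TPM (n = 3), 9.23-fold below control (-3.19 ± 0.55, adjusted p = 0.000806). Myocd-LSD1 also lay below PDGF-BB (-2.91 ± 0.55, adjusted p = 0.00106).

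Myocd-LSD1NF held 6606 ± 2897 TPM of Eln (n = 4), which did not pass against control (log2 fold change -1.14 ± 0.51, 95% interval -2.22 to -0.06, unadjusted p = 0.0403, adjusted p = 0.294, limma), though its 4 libraries lay below the 4 controls. Without library 4 the difference was -0.69 (adjusted p = 0.537). Both PDGF-BB (-2.06 ± 0.55, adjusted p = 0.0119) and Myocd-LSD1 (-4.97 ± 0.51, adjusted p = 4.55e-06) lay below Myocd-LSD1NF. SMC marker sums were likewise lower in PDGF-BB and Myocd-LSD1 than in control, and lowest of the group in Myocd-LSD1NF library 4. Unlike those of Eln, their ranges overlapped between control and Myocd-LSD1NF, and between PDGF-BB and Myocd-LSD1. Acta2 and Tagln made up most of the control sum. Of the 8 markers, 7 passed as lower than control in Myocd-LSD1 and 1, Des, as higher, beside 15.4% and 16.9% of all genes. With PDGF-BB 5 passed as lower and 1, Synpo2, as higher, beside 8.5% and 19.2% of all genes. The sum of the endothelial list was 19.4 to 25.3 TPM in control and 42.6 to 62.6 TPM in Myocd-LSD1, where Egfl7 made up most of it, Erg was lower than in control (0.39 to 1.39 TPM), and Cdh5 and Kdr were listed at 0. The sum of 8 mesothelial and epithelial markers was 33.5 to 56.05 TPM in control and 57.9 to 252 TPM in Myocd-LSD1. Of the 3 tested, 2 passed as higher in Myocd-LSD1 and 1 as lower, beside 16.9% and 15.4% of all genes. Msln was at 7.88 to 189 TPM beside 0.88 to 4.49 TPM in control, and Krt8 at 26.0 to 57.42 TPM beside 13.99 to 22.01 TPM. Upk3b was lower, at 2.94 to 23.63 TPM beside 14.93 to 32.1 TPM, and Wt1 was listed at 0. The part of these markers in the result was not tested. Without Myocd-LSD1 libraries 2 and 4 the difference of Myocd-LSD1 from control was -5.57 (adjusted p = 1.90e-05).

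**Figure D1:**
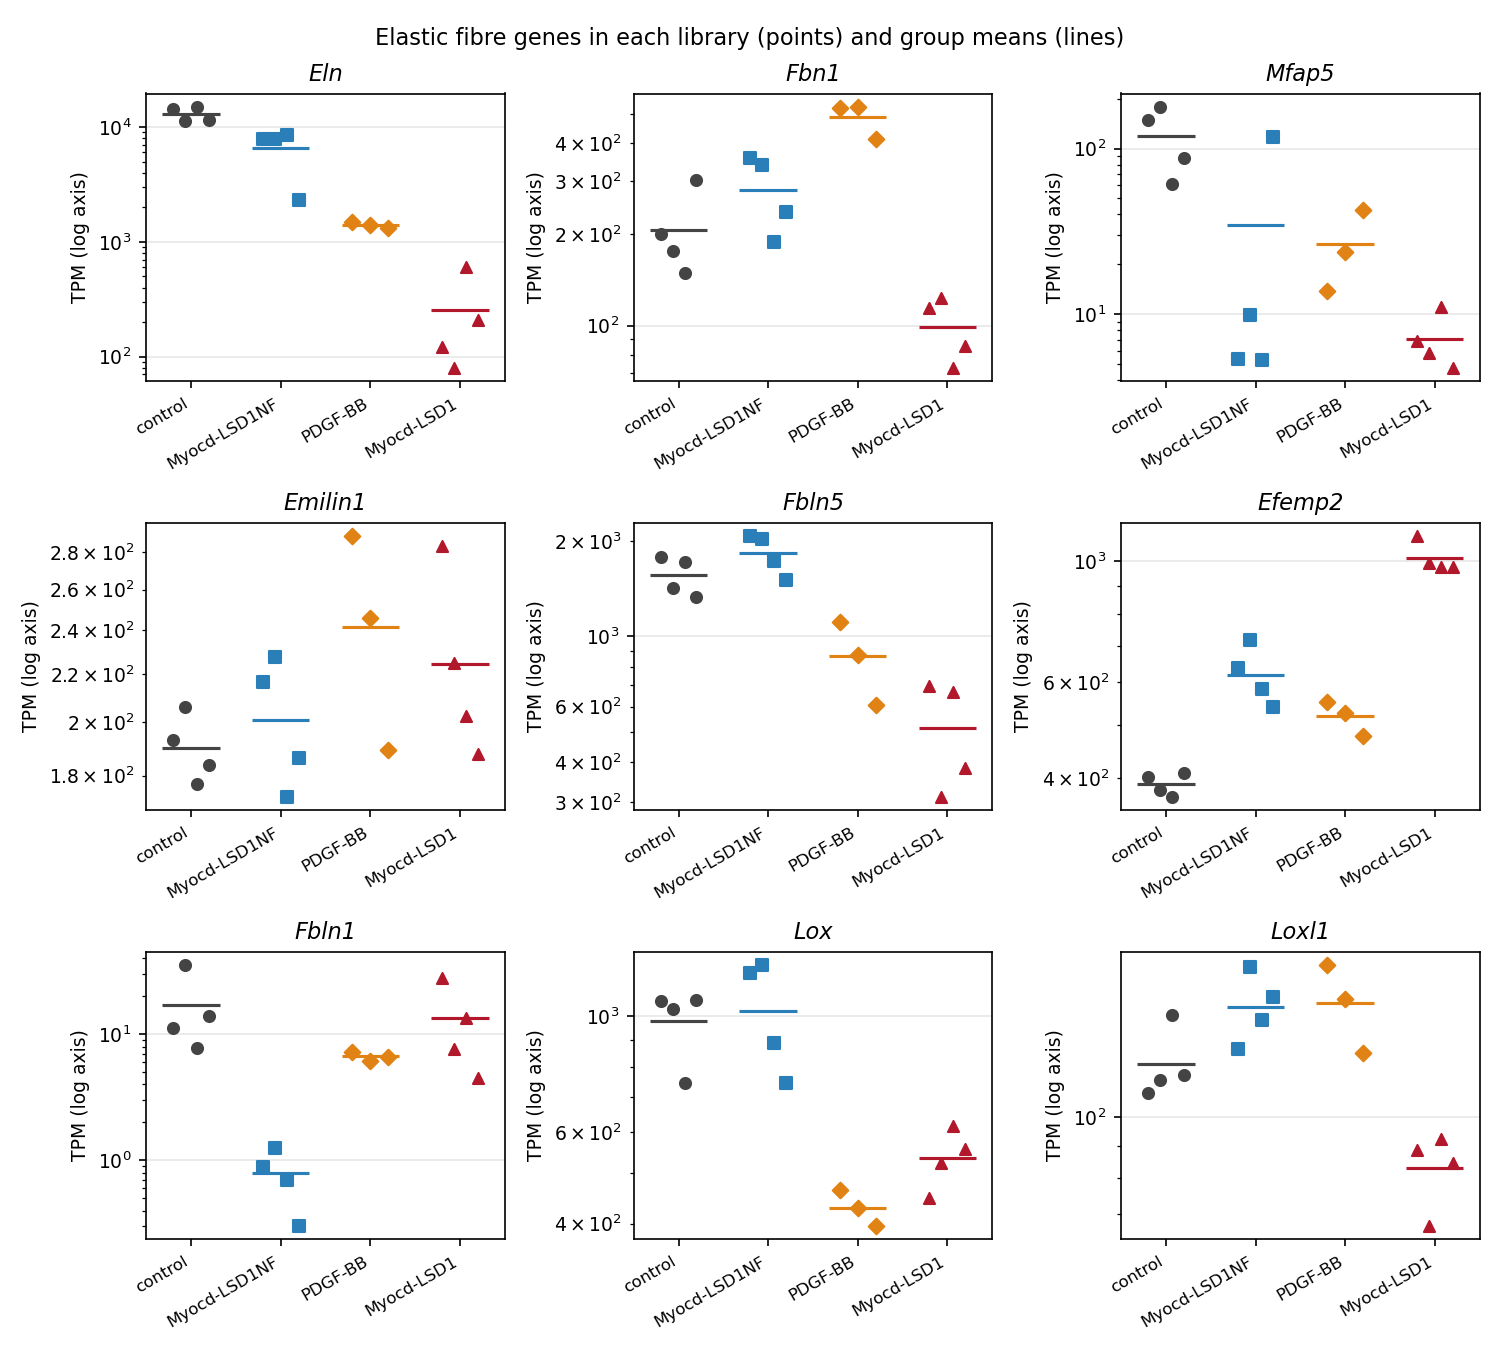
TPM of 9 elastic fibre genes in each library (points, log axis) by group, with the group mean as a line. Eln steps down through the 4 groups from 13039 to 253 TPM on average, Efemp2 has its highest values in Myocd-LSD1 (978 to 1116 TPM), and Fbln1 is at 0.30 to 1.26 TPM in Myocd-LSD1NF.

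Eln made up most of the sum of the 10 genes in every control library and in Myocd-LSD1NF 1 to 3, and less than the other 9 genes together in the remaining libraries. Their summed level was 1.49% to 1.84% of all TPM in control libraries, and Eln made up 76.1% to 81.7% of it. Eln was 39.7% to 69.7% of the sum in Myocd-LSD1NF, and 32.4% to 37.1% with PDGF-BB. In Myocd-LSD1 it was 3.39% to 18.5%. The other 9 genes added up to 3592 ± 231 TPM (SD, n = 4) in control and 4149 ± 645 (n = 4) in Myocd-LSD1NF. They came to 2726 ± 441 (n = 3) with PDGF-BB and 2493 ± 262 (n = 4) for Myocd-LSD1. Per 100 TPM of Eln, control libraries held 2.45 to 3.56 TPM of Efemp2 and Myocd-LSD1NF libraries 6.83 to 23.6. The ratio was 35.9 to 37.4 with PDGF-BB and 163 to 1250.0 for Myocd-LSD1. The ranges of this ratio did not overlap between groups, but neither did those of Eln, by which it is divided, so this is not a separate result. These sums and ratios were not tested.

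**Figure D2:**
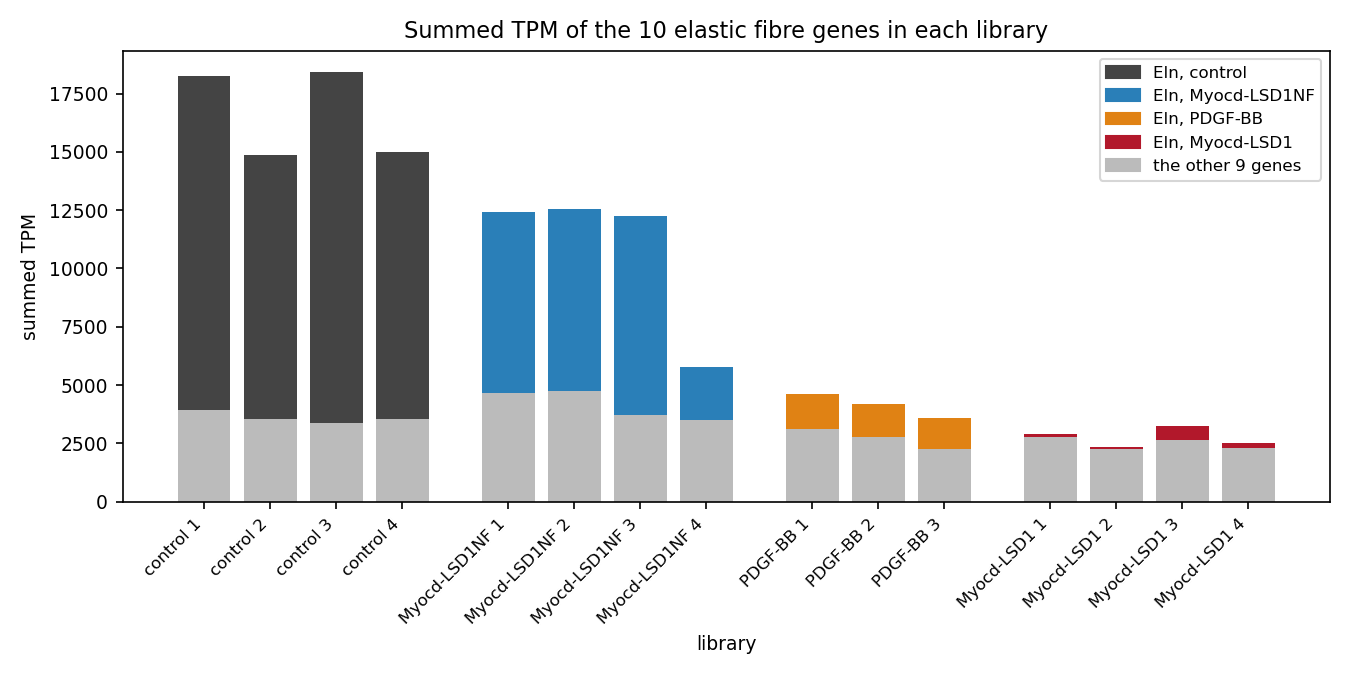
Summed TPM of the 10 genes in each library, with Eln as the coloured and the other 9 genes as the grey part of each bar. The grey part lies between 2255 and 4757 TPM in every library, while Eln runs from 15036 TPM in control 3 to 79.2 TPM in Myocd-LSD1 2.

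Among microfibril genes, Fbn1 differed most in direction. Fibrillin-1 message was at 199.8, 177, 149 and 302 TPM in control and at 519.8, 527 and 412 TPM under PDGF-BB, with no overlap, and rose 2.35-fold (log2 fold change 1.27 ± 0.26, adjusted p = 0.00265, n = 4 and 3, limma). In Myocd-LSD1 it was at 114, 123, 72.3 and 85.8 TPM, below every other library, and fell 2.09-fold from control (-1.04 ± 0.24, adjusted p = 0.00368, n = 4 and 4). The 2 groups differed from each other by 4.92-fold (-2.31 ± 0.26, adjusted p = 1.56e-05). Myocd-LSD1NF libraries read 357, 339, 189 and 236 TPM, which overlapped control and did not pass against it (0.44 ± 0.24, adjusted p = 0.407). PDGF-BB lay above Myocd-LSD1NF (0.83 ± 0.26, adjusted p = 0.0254), a call lost with median-of-ratios scaling (adjusted p = 0.0812). Leaving out Myocd-LSD1NF 3 or 4 or PDGF-BB 1 or 2 also ended it (adjusted p = 0.0506 to 0.0807, limma).

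Mfap5 encodes MAGP-2, a small glycoprotein bound to fibrillin. Controls read 149, 179.7, 60.95 and 88.3 TPM and Myocd-LSD1 libraries 6.88, 5.79, 11.0 and 4.70 TPM, a 16.9-fold fall (log2 fold change -3.83 ± 0.73, adjusted p = 0.000919, n = 4 and 4, limma). PDGF-BB libraries lay between them at 13.75, 23.7 and 42.45 TPM. Their difference from control was -2.14 ± 0.79 (adjusted p = 0.0555, n = 4 and 3), which passed when the compared groups were fitted alone (adjusted p = 0.00668), with median-of-ratios scaling (0.0431) and with a pseudocount of 5 (0.0415).

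Myocd-LSD1NF split into 3 libraries with little Mfap5, at 5.38, 9.82 and 5.25 TPM, and library 4 at 117 TPM, inside the control range. The group's difference from control was -2.88 ± 0.73 (adjusted p = 0.0559, limma), and without library 4 it was -3.87 (adjusted p = 0.000125). The difference of Myocd-LSD1 from Myocd-LSD1NF was -0.95 ± 0.73 (adjusted p = 0.343, limma), or 0.04 without library 4, a change of sign. For PDGF-BB, whose log2 difference from Myocd-LSD1NF was 0.74 ± 0.79 (adjusted p = 0.495), leaving it out gave 1.73 (adjusted p = 0.0088). In the same library Eln, the summed SMC markers and each listed SMC marker except Cnn1 were the lowest of the group. Cnn1, at 812 TPM, lay inside the range of the other libraries (566 to 927 TPM). The part of Eln and of these markers in the result was not tested.

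Mfap2, the gene of MAGP-1, the close relative of MAGP-2, did not pass the filter. It was listed at 0.09, 0, 0 and 0.17 TPM in control and 0, 0.10, 0.26 and 0 TPM in Myocd-LSD1NF. PDGF-BB libraries had 0.09, 0 and 0 TPM, Myocd-LSD1 libraries 0, 0.17, 0.09 and 0 TPM. No difference was computed at these levels.

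Emilin1, a glycoprotein at the interface of elastin and microfibrils, passed in none of the 6 comparisons, with an unadjusted p of at least 0.0555 in each (limma). It stood at 193, 206, 177 and 184 TPM in control and 216, 228, 172 and 186 TPM in Myocd-LSD1NF. PDGF-BB libraries read 289, 246 and 189 TPM and Myocd-LSD1 libraries 283, 225, 203 and 188 TPM, and all groups overlapped. The 95% interval of the log2 difference from control was -0.08 to 0.53 in Myocd-LSD1 (adjusted p = 0.264), -0.24 to 0.38 in Myocd-LSD1NF (0.861) and -0.01 to 0.66 in PDGF-BB (0.135). Without PDGF-BB 3 the last passed (0.49, adjusted p = 0.0468, limma).

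The 3 fibulin genes each had a pattern of their own. Fbln5, fibulin-5, tethers tropoelastin to cells and to Loxl1. It stood at 1785, 1422, 1723 and 1333 TPM in control and 2083, 2029, 1731 and 1503 TPM in Myocd-LSD1NF, which overlapped (log2 fold change 0.23 ± 0.25, adjusted p = 0.716, n = 4 and 4, limma). Myocd-LSD1 libraries held 695, 310.2, 666 and 385 TPM, a 3.05-fold fall from control (-1.68 ± 0.25, adjusted p = 0.000109). Under PDGF-BB it was at 1110.5, 876 and 607 TPM, below every control library (-0.89 ± 0.27, adjusted p = 0.0234). That call was lost without control 1 or 3 or PDGF-BB 2 or 3 (adjusted p = 0.0553 to 0.129). Myocd-LSD1 and PDGF-BB overlapped, and their difference of -0.79 ± 0.27 (adjusted p = 0.0365) did not pass with the compared groups alone (adjusted p = 0.103), with median-of-ratios scaling (0.0572) or with no filter (0.0579). The call was also lost without Myocd-LSD1 2 or 4 or PDGF-BB 1 or 2 (adjusted p = 0.0985 to 0.162, limma), and was -0.30 (adjusted p = 0.419) without both Myocd-LSD1 libraries 2 and 4.

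Efemp2, fibulin-4, which binds both tropoelastin and lysyl oxidase, was the 1 gene of the 9 tested that passed as higher than control in each of the 3 other groups, though not in PDGF-BB under another scaling. Controls held 401, 381, 369 and 408 TPM and Myocd-LSD1 libraries 1116, 992, 978 and 979 TPM, a 2.61-fold rise (1.38 ± 0.10 in log2 units, adjusted p = 9.78e-08, n = 4 and 4, limma). Myocd-LSD1NF libraries read 637, 718, 583 and 539.8 TPM (0.66 ± 0.10, adjusted p = 0.0018), and PDGF-BB libraries 553, 526 and 479 TPM (0.41 ± 0.11, adjusted p = 0.0103). Neither group overlapped control. The PDGF-BB call was lost under median-of-ratios scaling (0.27, adjusted p = 0.0681), which moved the median of all genes in this comparison from 0.13 to -0.01. Myocd-LSD1 exceeded Myocd-LSD1NF (0.72 ± 0.10, adjusted p = 6.64e-05) and PDGF-BB (0.97 ± 0.11, adjusted p = 1.25e-05). PDGF-BB against Myocd-LSD1NF gave -0.25 ± 0.11 (adjusted p = 0.0843), which passed with the median-of-ratios scaling (-0.45, adjusted p = 0.00596). It also passed when Myocd-LSD1NF 4 was left out (adjusted p = 0.0394, limma).

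Fbln1, fibulin-1, which is found in elastic fibres and basement membranes, was much less abundant than Fbln5 and Efemp2. It read 11.2, 35.75, 7.80 and 14.1 TPM in control and 0.89, 1.26, 0.70 and 0.30 TPM in Myocd-LSD1NF, a 21.9-fold fall with no overlap (log2 fold change -3.16 ± 0.45, adjusted p = 0.00147, n = 4 and 4, limma). The fall was seen in each of the 4 libraries, library 4 included. Myocd-LSD1 libraries held 27.9, 7.66, 13.55 and 4.52 TPM and overlapped control (-0.39 ± 0.45, adjusted p = 0.559). PDGF-BB libraries held 7.23, 6.18 and 6.62 TPM (-1.03 ± 0.49, adjusted p = 0.133). Both lay above Myocd-LSD1NF, by 2.76 ± 0.45 (adjusted p = 0.000336) and 2.13 ± 0.49 (adjusted p = 0.00561). With a pseudocount of 5 the second was 1.01 (adjusted p = 0.05, limma) and did not pass. The fibroblast marker Lum (lumican) was at 0.95 to 3.40 TPM in Myocd-LSD1NF and 8.37 to 31.3 TPM in control, and at 0.10 to 2.01 TPM in Myocd-LSD1, where Fbln1 did not pass. The 8 fibroblast markers were Lum, Dcn, Pdgfra, Dpt, Pi16, Col14a1, Ogn and Thy1. Their sum was 99.97 to 255 TPM in Myocd-LSD1NF against 170.4 to 289.95 TPM in control. Of the 7 tested, 2 passed as lower in Myocd-LSD1NF, where 1.74% of all genes did, and 5 did not pass. Col14a1, the most abundant, was at 85.3 to 232 TPM in Myocd-LSD1NF beside 83.3 to 185 TPM in control. Dcn was listed at 0 beside 0.09 to 0.52 TPM. The part of these markers in the result was not tested.

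The lysyl oxidase genes differed from each other under PDGF-BB. Lox, the main cross-linking enzyme of the arterial wall, stood at 1070.7, 1033, 745 and 1077 TPM in control. It was at 463, 429 and 395 TPM under PDGF-BB, a 2.29-fold fall (log2 fold change -1.18 ± 0.18, adjusted p = 0.000437, n = 4 and 3, limma), and at 448, 524, 615 and 555 TPM in Myocd-LSD1, a 1.83-fold fall (-0.87 ± 0.17, adjusted p = 0.00122, n = 4 and 4). Neither group overlapped control, and the difference between them was 0.31 ± 0.18, with a 95% interval of -0.08 to 0.71 (adjusted p = 0.221). Myocd-LSD1NF libraries read 1214, 1257, 889 and 744 TPM, across the control range (0.05 ± 0.17, adjusted p = 0.935).

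Loxl1, the family member that fibulin-5 guides to elastic fibres, was lower in Myocd-LSD1 alone among the 3 groups set against control. Controls held 109, 115, 146 and 117 TPM and Myocd-LSD1 libraries 88.7, 67.0, 92.4 and 84.7 TPM, with no overlap (-0.54 ± 0.13 in log2 units, adjusted p = 0.0059, n = 4 and 4, limma). Without Myocd-LSD1 libraries 2 and 4 it was -0.41 (adjusted p = 0.0674). PDGF-BB libraries read 175, 155 and 127 TPM (0.32 ± 0.15, adjusted p = 0.119) and Myocd-LSD1NF libraries 128, 174, 143 and 156 TPM (0.30 ± 0.13, adjusted p = 0.296), and both ranges overlapped control. Myocd-LSD1 lay below PDGF-BB (-0.86 ± 0.15, adjusted p = 0.000479) and below Myocd-LSD1NF (-0.85 ± 0.13, adjusted p = 0.000253), so the difference itself passed in both.

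**Figure D3:**
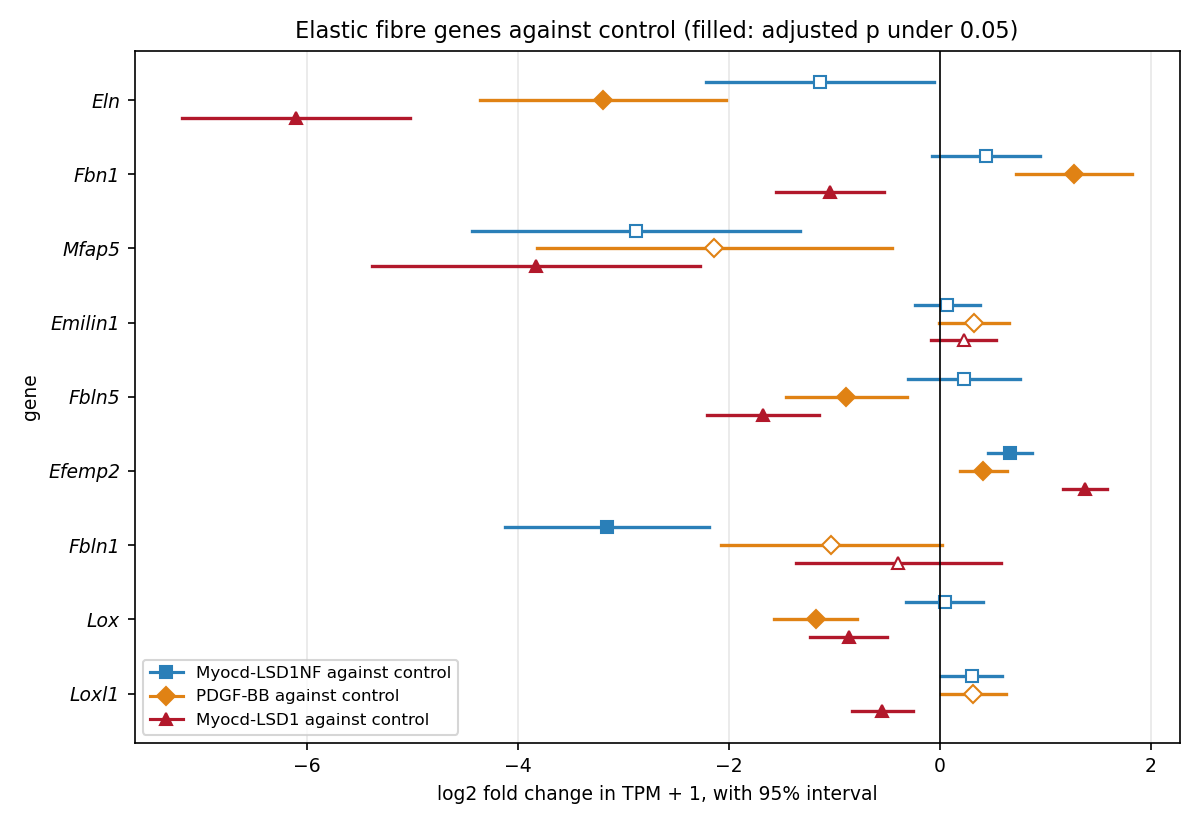
Log2 fold change of TPM + 1 against control for 9 genes in the 3 other groups, with the 95% interval as a bar and filled symbols for limma adjusted p under 0.05. Eln is farthest to the left in Myocd-LSD1 (-6.10), Efemp2 lies to the right of 0 in each group, and Fbn1 lies on opposite sides in PDGF-BB (1.27) and Myocd-LSD1 (-1.04).

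Counted by comparison, 7 of the 9 genes tested passed in Myocd-LSD1 against control, where 32.2% of all genes passed (limma adjusted p under 0.05). Eln, Fbn1, Fbln5, Mfap5, Lox and Loxl1 fell (15.4% of all genes did) and Efemp2 rose (16.9% did), with a median log2 fold change of -0.87 beside 0.03 for all genes tested. Without Myocd-LSD1 libraries 2 and 4, 6 passed. In PDGF-BB against control 5 of 9 passed beside 27.7% of all genes. Eln, Fbln5 and Lox fell (8.5% of all genes did) and Fbn1 and Efemp2 rose (19.2% did), with a median of -0.89 beside 0.13. With median-of-ratios scaling 1 rose and 4 fell, since Efemp2 was lost and Mfap5 gained. In Myocd-LSD1NF against control 2 of 9 passed, Fbln1 lower (1.74% of all genes were) and Efemp2 higher (0.475% were), beside 2.21% in either direction, with medians of 0.07 and -0.05. Without Myocd-LSD1NF 4, 3 passed. The 3 comparisons share their control libraries.

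Set directly against each other, Myocd-LSD1 and Myocd-LSD1NF differed in 7 of 9 genes beside 31.8% of all genes. Eln, Fbn1 (log2 fold change -1.48 ± 0.24), Fbln5 (-1.91 ± 0.25), Lox (-0.91 ± 0.17) and Loxl1 were lower in Myocd-LSD1 (12.7% of all genes were), and Fbln1 and Efemp2 were higher (19.1% were; limma adjusted p from 4.55e-06 to 0.000948). Myocd-LSD1 and PDGF-BB differed in 5 of 9 beside 31.1%, with Eln, Fbn1, Fbln5 and Loxl1 lower (20.5% of all genes were) and Efemp2 higher (10.6% were) in Myocd-LSD1. The Fbln5 call is the one lost in several alternatives above. PDGF-BB and Myocd-LSD1NF differed in 5 of 9 beside 31.4%. Eln, Fbln5 (-1.12 ± 0.27) and Lox (-1.22 ± 0.18) were lower under PDGF-BB (7.59% of all genes were) and Fbn1 and Fbln1 higher (23.9% were). The other scaling gave 1 higher and 4 lower. The Fbln1 call was lost with a pseudocount of 5.

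The order of the group means followed no common line. For Eln it was control, Myocd-LSD1NF, PDGF-BB, Myocd-LSD1, and the step from control to Myocd-LSD1NF was the 1 step that did not pass. For Fbln5 it began with Myocd-LSD1NF and control, which did not pass against each other, and went down through PDGF-BB to Myocd-LSD1. For Efemp2 the order ran from Myocd-LSD1 through Myocd-LSD1NF and PDGF-BB to control, with no call between the middle pair. Fbn1 and Loxl1 went from PDGF-BB through Myocd-LSD1NF and control to Myocd-LSD1. In Fbn1 the step between Myocd-LSD1NF and control did not pass, and in Loxl1 the step to Myocd-LSD1 was the 1 that did. For Lox, Myocd-LSD1NF and control stood above Myocd-LSD1 and PDGF-BB, with no call within either pair. In Mfap5 no step between neighbours passed, and in Fbln1 the last, from PDGF-BB to Myocd-LSD1NF, was the 1 that did.

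Other genes of the same pathway were read from lists chosen with earlier results of these data known. Of 25 further microfibril and elastic fibre genes 14 were tested. In Myocd-LSD1 against control 2 rose and 1 fell of these, 21.4% beside 32.2% of all genes (median log2 fold change 0.02). They were the proteoglycan gene Vcan (1.68 ± 0.53) and Adamtsl5 (0.86 ± 0.14) against Adamts10 (-0.51 ± 0.18). Under PDGF-BB 1 rose and 3 fell, 28.6% beside 27.7% of all genes (median 0.02). Vcan, versican, was at 85.3 to 126 TPM beside 5.17 to 20.3 TPM in control (3.24 ± 0.58, adjusted p = 0.00103, limma), and Adamtsl4, which binds fibrillin-1, at 25.4 to 36.2 TPM beside 81.2 to 119.8 TPM (-1.67 ± 0.16, adjusted p = 8.28e-06). None passed limma's adjusted test in Myocd-LSD1NF against control (median 0.02), and 5 had an unadjusted p under 0.05.

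Lysyl oxidases beyond the first pair, their copper supply and the proteases that activate them made a list of 10, of which 9 were tested. In Myocd-LSD1 against control 3 rose and 1 fell, 44.4% beside 32.2% of all genes (median log2 fold change 0.25). Loxl4 was at 28.8 to 51.8 TPM beside 7.44 to 16.4 TPM in control (1.72 ± 0.29), and Pcolce, an enhancer of procollagen processing, at 1215 to 2057 TPM beside 761 to 940.03 TPM (0.91 ± 0.16). Tll1, a protease of the Bmp1 family, fell from 55.6 ± 9.85 to 4.37 ± 4.42 TPM (SD, n = 4 and 4; -3.81 ± 0.46, limma adjusted p = 1.86e-05). Loxl4 was the 1 gene of this list that passed under PDGF-BB (1.47 ± 0.31, adjusted p = 0.00358) and in Myocd-LSD1NF (1.22 ± 0.29, adjusted p = 0.0419). That is 11.1% of the list, beside 27.7% and 2.21% of all genes, with list medians of 0.20 and 0.07. It thus rose in each group in which it was set against control.

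Genes of elastin secretion and of cutis laxa, an inherited loss of elastic tissue, made a list of 12 with 11 tested. In Myocd-LSD1 5 rose and 2 fell against control, where 16.9% of all genes rose and 15.4% fell (median log2 fold change 0.26). Gorab, a Golgi protein, was at 41.7 to 89.3 TPM beside 14.1 to 15.2 TPM (2.19 ± 0.19, limma adjusted p = 1.01e-06), Glb1 at 1.12 ± 0.14 and the collagen and elastin chaperone Fkbp10 at 1.10 ± 0.17 also rose, and the glucose transporter Slc2a10 fell (-1.51 ± 0.12, adjusted p = 4.21e-07). In PDGF-BB none rose and 5 fell, where 19.2% of all genes rose and 8.5% fell (median -0.18), among them Rin2 (-1.04 ± 0.28), Slc2a10 (-1.02 ± 0.13) and Neu1 (-0.80 ± 0.16). None passed limma's adjusted test in Myocd-LSD1NF (median 0.13), and 2 had an unadjusted p under 0.05.

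Elastin-degrading proteases and their inhibitors were read last. Of 14 protease genes 6 were tested, and Mmp12 and Elane were listed at 0 in all 15 libraries. In Myocd-LSD1 3 rose and 1 fell, where 16.9% of all genes rose and 15.4% fell (median log2 fold change 0.75). They were the cathepsins Ctsb (1.18 ± 0.13) and Ctsl (1.10 ± 0.15) and the membrane protease Mmp14 (0.40 ± 0.12) against Ctsk (-1.58 ± 0.47). In PDGF-BB 2 rose, Ctsb (0.86 ± 0.14) and Ctsl (0.53 ± 0.17), with a median of 0.51, and 19.2% of all genes rose. Of 11 inhibitor genes 8 were tested, of which 6 rose and 1 fell in Myocd-LSD1 (median 1.37), and 3 rose and 2 fell in PDGF-BB (median 0.03). Over all genes 16.9% rose and 15.4% fell in Myocd-LSD1, and 19.2% and 8.5% in PDGF-BB. Serpine2, protease nexin-1, was at 158 to 306 TPM in Myocd-LSD1 beside 7.15 to 12.9 TPM in control (4.33 ± 0.25, limma adjusted p = 1.25e-08). Timp1 rose in Myocd-LSD1 (2.01 ± 0.26) and PDGF-BB (1.75 ± 0.28), while Timp3 fell in Myocd-LSD1 (-3.30 ± 0.998, adjusted p = 0.0196), from 372 to 468 TPM in control to 8.61 to 157 TPM. None of either list passed limma's adjusted test in Myocd-LSD1NF (medians 0.23 and 0.10), and 1 protease and 2 inhibitor genes had an unadjusted p under 0.05.

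The genes whose levels ran closest to Eln over the 15 libraries were searched among entries averaging at least 5 TPM, with the root mean square difference of log2 ratios to the control mean as the measure. Tnnc1, slow troponin C, was nearest at 0.53 log2 units, followed by Prss35 (0.72), Nkd2 (0.88), Il17b (0.93) and Itga8 (0.93). Tnnc1 averaged 918 ± 215 TPM in control and 481 ± 212 in Myocd-LSD1NF (SD, n = 4 each). With PDGF-BB it was 72.6 ± 19.6 (n = 3), and Myocd-LSD1 had 27.3 ± 29.9 (n = 4). In Myocd-LSD1 libraries 1 to 4 Tnnc1 read 18.5, 6.69, 71.6 and 12.5 TPM where Eln read 122, 79.2, 599.8 and 209 TPM. Both were highest in library 3 and lowest in library 2, while libraries 1 and 4 were in opposite order. In control Eln was lowest in library 2, where Tnnc1 was second highest (1083 TPM). No other elastic fibre gene was as near to Eln as these. Mfap5 differed from Eln by 2.13 log2 units (place 107 of 9892 genes by nearness), Fbln5 by 2.67 (place 259) and Lox by 2.98 (place 469). Efemp2 differed by 4.34 (place 9558). These distances are a description, and the libraries share the same groups.

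**Figure D4:**
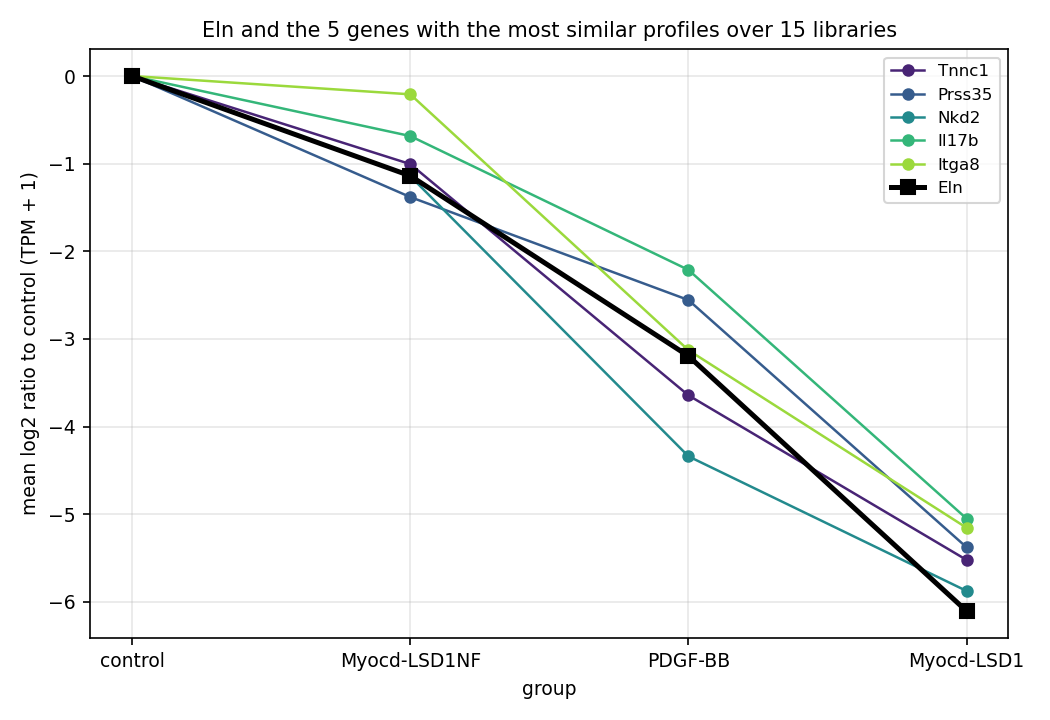
Mean log2 ratio to control (TPM + 1) of Eln (black squares) and of the 5 genes nearest to it in each group. Each falls in the order of the groups shown, Eln from -1.14 in Myocd-LSD1NF to -3.19 in PDGF-BB and -6.10 in Myocd-LSD1, and Tnnc1 from -1.005 to -3.64 and -5.52.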

How the data were processed

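RNA was taken from the cells with a column kit and DNase, and a TruSeq Stranded mRNA kit gave poly(A) libraries, per the labels' protocols. The authors deposited TPM in 1 table with a column per library. No aligner, counter, build or annotation is named there. The 4 columns of group means were not used. Columns were matched to samples by title.

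Entries with TPM of at least 1 in at least 3 of 15 libraries were kept (12207, with 20416 not tested). Log2(TPM + 1) was fitted with 1 mean per group in limma 3.58.1 (R 4.3.3; eBayes with trend), and 6 pairwise comparisons were read, two-sided, with Benjamini-Hochberg adjustment over all entries kept. The procedure was run on simulated data with noise drawn independently for each gene and library. Those data held no library that stood apart from its group, and the outcome is not reported here. Symbols were matched exactly. Pathway genes not matched by symbol were not used here. Named genes were the 10 members, up to 3 called genes per list, comparison and direction (not all are reported), and the 5 nearest to Eln, locus identifiers left out. The members and lists were chosen with earlier results of these data known. Alternatives were 2 other pseudocounts, 2 other filters, median-of-ratios scaling, a replicate block, the compared groups alone, and leaving out libraries. Descriptions and plots used Python 3.11.15, pandas 2.3.3, numpy 2.4.6 and matplotlib 3.10.9. Promoters came from RefSeq, build GRCr8.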

Additional observations from a re-analysis of the deposited data

Results flagged for a closer look

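In 27 sets of 4 libraries of 1 group (9 genes in 3 groups), 4 had a library whose gap to the nearest other, over the range, passed Dixon's 95% critical value, which chance gives in about 1 of 20. Eln in Myocd-LSD1NF 4 was 2292 TPM against 7791 to 8543 TPM in the other libraries of that group. Mfap5 in the same library was 117.25 TPM against 5.25 to 9.82 TPM. Efemp2 in Myocd-LSD1 1 was 1115.9 TPM against 978 to 992 TPM, and Lox in control 3 was 745 TPM against 1033 to 1077 TPM.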

How the results depend on the processing

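The counts of elastic fibre genes called stayed within 1.5 times the reported ones in every alternative. Leaving out 1 library gave 7 to 7 in Myocd-LSD1 against control and against Myocd-LSD1NF, 4 to 5 in Myocd-LSD1 against PDGF-BB and in PDGF-BB against control, 2 to 3 in Myocd-LSD1NF against control and 4 to 6 in PDGF-BB against Myocd-LSD1NF. With the replicate number as a block the counts were those reported (7, 2 and 5 against control for Myocd-LSD1, Myocd-LSD1NF and PDGF-BB, and 7, 5 and 5 in the other comparisons), and no call of a member changed. Same-numbered libraries of different groups correlated at -0.225 to 0.576 in their deviations from the group means (median 0.1, 21 pairs). Libraries with different numbers correlated at -0.322 to 0.316 (median -0.03, 63 pairs). The labels do not state that the numbers pair libraries, so they were not taken as pairs, and these correlations do not settle it. Over all genes the block gave 4246, 342 and 3565 calls against control, beside 3936, 270 and 3384 as reported. In the other comparisons it gave 4232, 3719 and 3884, beside 3877, 3792 and 3839.

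Over all genes, 270 passed in Myocd-LSD1NF against control, 110 when genes under a mean of 5 TPM were dropped, 176 with the compared groups alone and 109 to 312 without 1 library (109, 112, 171 and 128 without control 1, 2, 3 and Myocd-LSD1NF 2). PDGF-BB against control gave 3384, and 2137 (without PDGF-BB 3) to 2993 without 1 library. PDGF-BB against Myocd-LSD1NF gave 3839, and 2177 (without PDGF-BB 3) to 3832. Myocd-LSD1 against PDGF-BB gave 3792, and 2242 without Myocd-LSD1 libraries 2 and 4. Higher and lower calls under median-of-ratios scaling were 109 and 207 (58 and 212 as reported) in Myocd-LSD1NF against control, 1683 and 1746 (2347 and 1037) in PDGF-BB against control, 2045 and 2135 (2331 and 1546) in Myocd-LSD1 against Myocd-LSD1NF, 1911 and 2008 (1295 and 2497) in Myocd-LSD1 against PDGF-BB, and 1573 and 1616 (2913 and 926) in PDGF-BB against Myocd-LSD1NF. This scaling moved the median log2 fold change of all genes from -0.10 to 0.01 in Myocd-LSD1 against PDGF-BB and from 0.18 to 0.00 in PDGF-BB against Myocd-LSD1NF.

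In the alternatives run, changes of sign were confined to differences that had not passed. Emilin1 in Myocd-LSD1 against PDGF-BB (log2 fold change -0.10) was 0.018 under median-of-ratios scaling, 0.01 without Myocd-LSD1 libraries 2 and 4 and -0.26 to 0.041 without 1 library. Fbln1 in Myocd-LSD1 against control (-0.39) was 0.39 without libraries 2 and 4 and -0.82 to 0.018 without 1 library. Loxl1 in PDGF-BB against Myocd-LSD1NF (0.02) was -0.18 under the scaling and -0.093 to 0.14 without 1 library. Lox in Myocd-LSD1NF against control (0.05) ran from -0.081 to 0.19, and Mfap5 in Myocd-LSD1 against Myocd-LSD1NF (-0.95) from -1.37 to 0.041. Fbln1 in PDGF-BB against Myocd-LSD1NF missed the threshold with a pseudocount of 5 (1.01, adjusted p = 0.05, limma), which shrinks differences of low genes. For the other changes the cause was not tested. TPM keep no depth, so counting error could not be given, and values under a few TPM are the least certain.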
